A study of Mus musculus with 6 samples.

Results

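The DLK-JNK axon injury response genes are 10 mouse genes that were followed by their symbol in RNA-seq of cultured retinal ganglion cells (RGCs). They are the upstream kinases Map3k12 and Map3k13, the c-Jun N-terminal kinases Mapk8, Mapk9 and Mapk10, the transcription factors Jun and Atf3, and the injury-induced genes Gadd45a, Sprr1a and Ecel1. All 10 were listed among the 43346 Ensembl genes of the expression tables, and all 10 were among the 15747 genes with enough counts to be tested.

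Mouse RGCs were purified by immunopanning on CD90.1 and plated on PDL/laminin at 250000 cells per well in medium with forskolin, BDNF and CNTF. At 4 h after plating they received 1.5 μl of a control adeno-associated virus (AAV), an AAV encoding Sox11 (SOX11_WT) or an AAV encoding Sox11K91A (SOX11_MUTANT), at about 100000 vector genomes (vg) per cell. Sox11K91A carries alanine in place of the lysine at which the small modifier protein SUMO is attached. RNA was taken 72 h after plating, 500 ng per sample, and each of the 3 groups had 2 replicate libraries. The age of the cells is given as embryonic day 18 for the RNA-seq and as postnatal day 2 in the general culture protocol, and the expression tables of these libraries are named P0, so the sources conflict. All groups, the controls included, had been dissociated from the retina, virally transduced and kept in the same medium. By the study's methods, the control plasmid carried EGFP, and the Sox11 and Sox11K91A plasmids carried EGFP behind an internal ribosome entry site. Whether replicates came from separate preparations is not given in the sources used here, so the p-values measure the spread between these libraries, which may be technical.

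In neurons, axon damage activates DLK, the kinase encoded by Map3k12, and its relative LZK, encoded by Map3k13. Both act through the MAP2 kinases MKK4 and MKK7 on the JNKs, which phosphorylate c-Jun and related factors and so alter transcription in the cell body. In RGCs after optic nerve injury this cascade is known both for driving cell death and for switching on genes linked to axon growth, among them Atf3, Sprr1a, Gadd45a and Ecel1. Purifying RGCs cuts their axons, so cultures of this kind start from injured cells.

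The summed expected counts per library lay between 27521981 and 37061718. The gene the viruses were built to express, Sox11, was at 234 and 332 CPM (counts scaled to library size) with control AAV, 9178 and 14591 CPM with Sox11 and 11971 and 7026 CPM with Sox11K91A, so all 4 libraries labelled for a Sox11 virus held far more Sox11 RNA than the controls. Control replicate 2 and Sox11 replicate 2 stood apart from the others on the second principal component (16.4% of the variance) and were lowest in Xist, at 95.9 and 254 CPM against 400 to 526 CPM in the other 4 libraries. Among RGC markers, Rbpms, Pou4f1 and Isl1 did not pass the test in either comparison with control, while Thy1, which encodes the CD90 antigen used for panning, was at 725 and 689 CPM with control AAV, 259 and 46.3 CPM with Sox11 and 154 and 312 CPM with Sox11K91A. The summed CPM of the 11 RGC markers was 9806 to 10603 in control libraries, 4389 to 6925 with Sox11 and 5616 to 7198 with Sox11K91A. Most of this sum was Nefl, the neurofilament light chain, at 7086 and 6345 CPM with control AAV, 4104 and 2188 CPM with Sox11 and 3096 and 4328 CPM with Sox11K91A. Of the 11 markers, 8 did not pass the test with Sox11 and 10 did not with Sox11K91A, and the median log2 fold change of the list was -0.17 and -0.14. In bulk RNA such as this, fewer cells of a type and less RNA per cell cannot be told apart.

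With either Sox11 virus, 4 of the 10 genes fell and 1 rose. Atf3, Sprr1a, Ecel1 and Jun were downregulated, and the JNK gene Mapk8 was upregulated. Map3k12, Map3k13, Mapk9, Mapk10 and Gadd45a did not pass the test. A gene was called when its false discovery rate (FDR, the Benjamini-Hochberg adjusted p over all genes tested in limma-voom) was under 0.05 and its fold change was above 1.2. By this rule 5 of 10 members were called with Sox11, where 20.1% of all genes tested were called, 9.96% up and 10.2% down. With Sox11K91A the same rule called 5 of 10 members, where 10.6% of all genes tested were called, 5.81% up and 4.81% down. At an unadjusted p under 0.05, 6 of 10 members passed in each comparison, where 38% and 30.6% of all genes tested did. The median absolute log2 fold change of the 10 members was 0.85 with Sox11 and 0.79 with Sox11K91A, and over all genes tested it was 0.46 and 0.39. Both comparisons use the same control libraries, so they are not independent of each other.

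**Figure D1:**
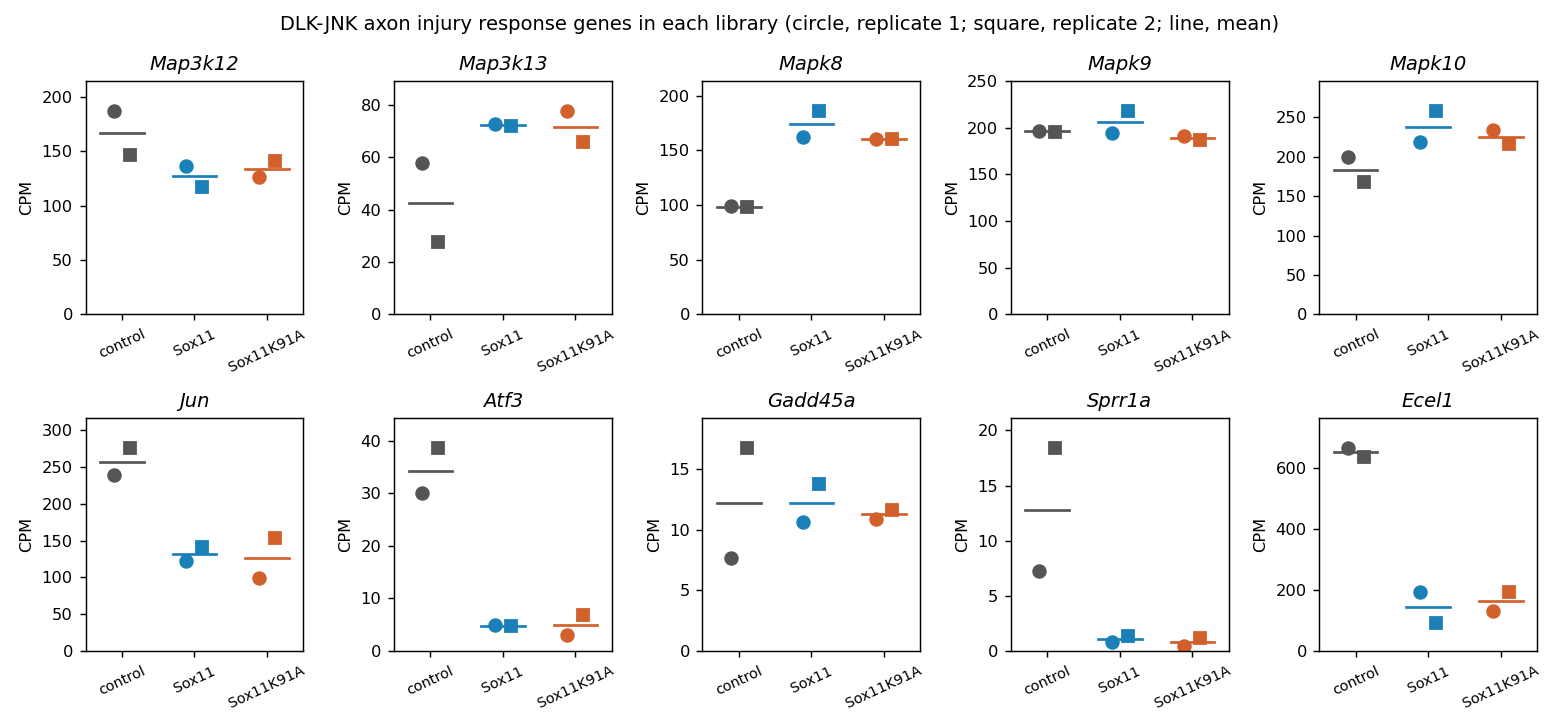
CPM (linear axis from 0) of the 10 genes in each of the 6 libraries, with circles for replicate 1, squares for replicate 2 and a line at the mean of each group. For Jun, Atf3, Sprr1a and Ecel1 both control libraries lie above all 4 libraries with a Sox11 virus, and for Mapk8 both lie below them.

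The upstream kinases did not pass the test. Map3k12 (chr15:102497646-102517064, minus strand, mouse build GRCm38) encodes DLK. It was at 187 and 146 CPM with control AAV, 136 and 117 CPM with Sox11 and 127 and 141 CPM with Sox11K91A. Every library with a Sox11 virus lay below both controls, but the log2 fold changes of -0.38 (95% confidence interval -0.79 to 0.02, FDR 0.148) with Sox11 and -0.31 (-0.71 to 0.10, FDR 0.272) with Sox11K91A were not called. Map3k13 (chr16:21794346-21933439, plus strand), the LZK gene, was at 57.8 and 27.5 CPM with control AAV, 72.7 and 72.1 CPM with Sox11 and 77.6 and 65.9 CPM with Sox11K91A. The 2 controls differed from each other by more than the 4 other libraries did, and both lay below them. The log2 fold changes of Map3k13 were 0.88 (0.14 to 1.63, FDR 0.0876) and 0.87 (0.12 to 1.61, FDR 0.119), with limma-voom adjusted p-values above the threshold. Without control replicate 1, the higher of the 2, Map3k13 was called in both comparisons, with log2 fold changes of 1.39 (FDR 0.0193) and 1.38 (FDR 0.0234), and with a block for the libraries low in Xist it was called with Sox11 at 0.86 (FDR 0.0489). Merged exons of Map3k12 overlap other annotated genes over 19.3% of their length, mainly Pcbp2 on the opposite strand, and those of Map3k13 over 3.22%, and whether counting used strand is not given in the sources used here.

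The shares of the kinases were compared per length, in TPM (counts scaled for transcript length and library size). DLK was the main kinase of the pair in every library. Map3k12 made up 85.2% and 90.0% of the summed TPM of Map3k12 and Map3k13 in control libraries, 76.9% and 75.6% with Sox11 and 74.8% and 79.0% with Sox11K91A. The groups with a Sox11 virus did not overlap the controls in this share, whose mean went from 87.6% ± 3.37 (SD, n = 2) to 76.3% ± 0.877 and 76.9% ± 2.97. The summed TPM of the pair was 97.2 ± 30.1, 94.1 ± 3.21 and 93.3 ± 0.799, within the spread of the controls. The shares of expected counts were lower for Map3k12, at 80.2%, 63.6% and 65.1%, with the same order of groups.

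Of the 3 JNK genes, Mapk8 rose and the other two did not pass the test. Mapk8 (chr14:33377898-33447158, minus strand) encodes JNK1. It was at 98.7 and 97.9 CPM with control AAV, 162 and 185 CPM with Sox11 and 161 and 160 CPM with Sox11K91A. Replicates were close and the groups did not overlap the controls. The log2 fold change was 0.82 (0.50 to 1.14, FDR 0.0146) with Sox11 and 0.71 (0.39 to 1.03, FDR 0.0277) with Sox11K91A in limma-voom, a rise of 1.76-fold and 1.63-fold. Mapk9 (chr11:49846751-49886421, plus strand), which encodes JNK2, was at 197 and 196 CPM with control AAV, 194 and 217 CPM with Sox11 and 192 and 187 CPM with Sox11K91A. These values gave log2 fold changes of 0.07 (-0.25 to 0.38) and -0.05 (-0.37 to 0.26), intervals that leave out a change as large as the estimate for Mapk8. Mapk10 (chr5:102907948-103211334, minus strand) encodes JNK3, the JNK best known from neurons. It was at 199.8 and 168 CPM with control AAV, 219 and 258 CPM with Sox11 and 234 and 216 CPM with Sox11K91A. All 4 libraries with a Sox11 virus lay above both controls, with log2 fold changes of 0.37 (-0.00 to 0.75, FDR 0.133) and 0.30 (-0.08 to 0.67, FDR 0.257) that were not called.

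In TPM, the 3 JNK genes together summed to 270 and 213 in control libraries, 310 and 355 with Sox11 and 306 and 292 with Sox11K91A. The share of Mapk8 in this sum was 19.5% and 18.1% in control libraries, 28.4% and 27.1% with Sox11 and 27.3% and 28.0% with Sox11K91A, without overlap with the controls. Mapk10 held 43.5% ± 1.58, 40.2% ± 0.773 and 41.0% ± 1.09 of it, and Mapk9 37.7% ± 2.60, 32.0% ± 0.145 and 31.3% ± 0.552. As shares of expected counts, Mapk10 was at 38.4%, 38.6% and 39.2%, so the lower share of Mapk10 under the viruses was seen in TPM alone.

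**Figure D2:**
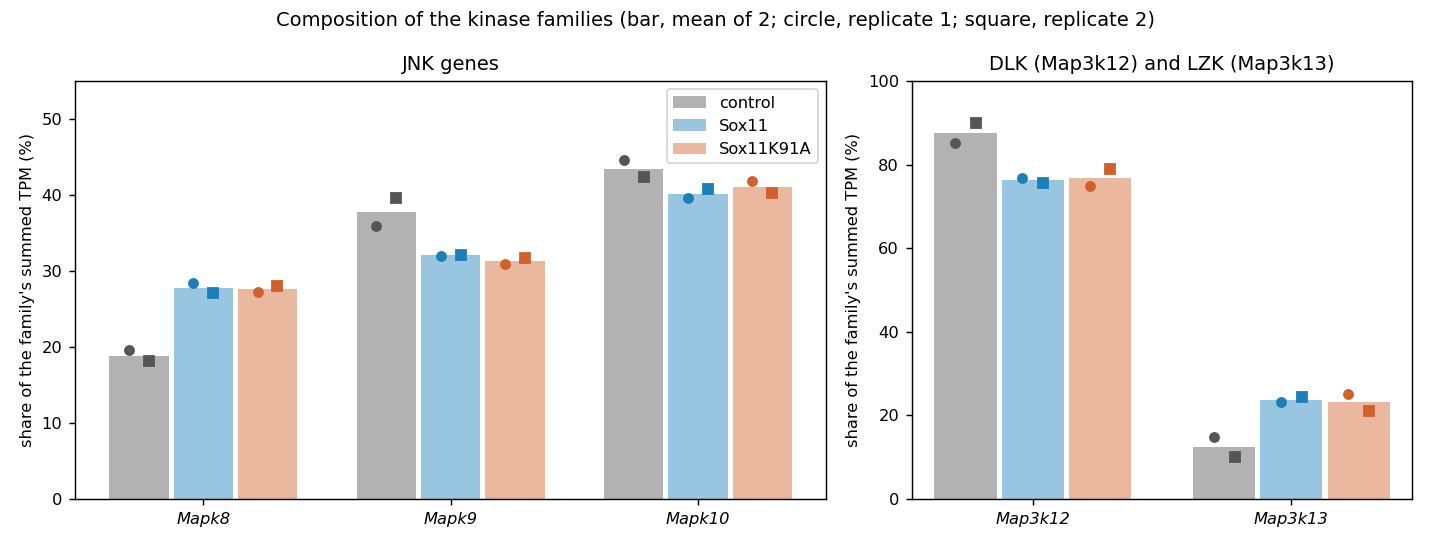
Share (%) of each kinase gene in the summed TPM of its family, for the JNK genes (left) and for Map3k12 and Map3k13 (right), with bars at the mean of 2 libraries and symbols for each library. Mapk8 and Map3k13 hold a larger share in all 4 libraries with a Sox11 virus than in either control.

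Both transcription factors were downregulated. Jun (chr4:95049034-95052222, minus strand, a gene of 1 exon) encodes c-Jun, the JNK substrate for which the kinases are named. It was at 239 and 276 CPM with control AAV, 123 and 142 CPM with Sox11 and 99.3 and 154 CPM with Sox11K91A. The controls lay above all other libraries. The opposite-strand gene Junos covers 7.28% of its exon. In limma-voom the log2 fold change was -0.96 (-1.50 to -0.42, FDR 0.0309) with Sox11 and -1.05 (-1.59 to -0.52, FDR 0.0357) with Sox11K91A, 1.95-fold and 2.07-fold lower than with control AAV. Atf3 (chr1:191170296-191218039, minus strand) encodes a stress-induced bZIP factor that is nearly silent in uninjured neurons and pairs with c-Jun. It was at 30.0 and 38.6 CPM with control AAV, 4.99 and 4.74 CPM with Sox11 and 3.13 and 6.89 CPM with Sox11K91A. The lowest control was thus above 4 times the highest library with a Sox11 virus. Its log2 fold change of -2.81 (-3.63 to -2.00, FDR 0.0113) with Sox11 and -2.89 (-3.71 to -2.08, FDR 0.0140) with Sox11K91A was 7.03-fold and 7.43-fold lower.

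The injury-induced genes did not move as a group. Gadd45a (chr6:67035096-67037457, minus strand) encodes a DNA damage and stress response protein. It was at 7.66 and 16.7 CPM with control AAV, 10.6 and 13.8 CPM with Sox11 and 10.9 and 11.7 CPM with Sox11K91A. The 2 controls enclosed all other libraries, and the log2 fold changes of 0.05 (-0.82 to 0.91) and -0.07 (-0.94 to 0.80) allow a change of nearly 1 in either direction. Its exons share 19.1% of their length with E230016M11Rik on the opposite strand, whose reads cannot be told apart if counting ignored strand. Sprr1a (chr3:92483952-92485895, minus strand) encodes a small proline-rich protein that is induced by axotomy and promotes outgrowth. It was at 7.23 and 18.4 CPM with control AAV (202 and 709 counts), 0.837 and 1.36 CPM with Sox11 (23 and 45 counts) and 0.466 and 1.2 CPM with Sox11K91A (15 and 35 counts). The 2 controls were far apart, yet the lower of them was above all 4 libraries with a Sox11 virus. The log2 fold change of Sprr1a was -3.46 (-5.27 to -1.66, FDR 0.0263) with Sox11 and -4.01 (-6.01 to -2.01, FDR 0.0335) with Sox11K91A in limma-voom.

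Ecel1 (chr1:87147655-87156521, minus strand) encodes a membrane endopeptidase-like protein known from injured neurons. It was at 663 and 636 CPM with control AAV, 195 and 92.5 CPM with Sox11 and 130 and 195 CPM with Sox11K91A. The controls were close to each other and far above the other 4 libraries. Its log2 fold change was -2.27 (-3.12 to -1.42, FDR 0.0137) with Sox11 and -2.03 (-2.88 to -1.17, FDR 0.0249) with Sox11K91A, 4.83-fold and 4.07-fold lower.

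**Figure D3:**
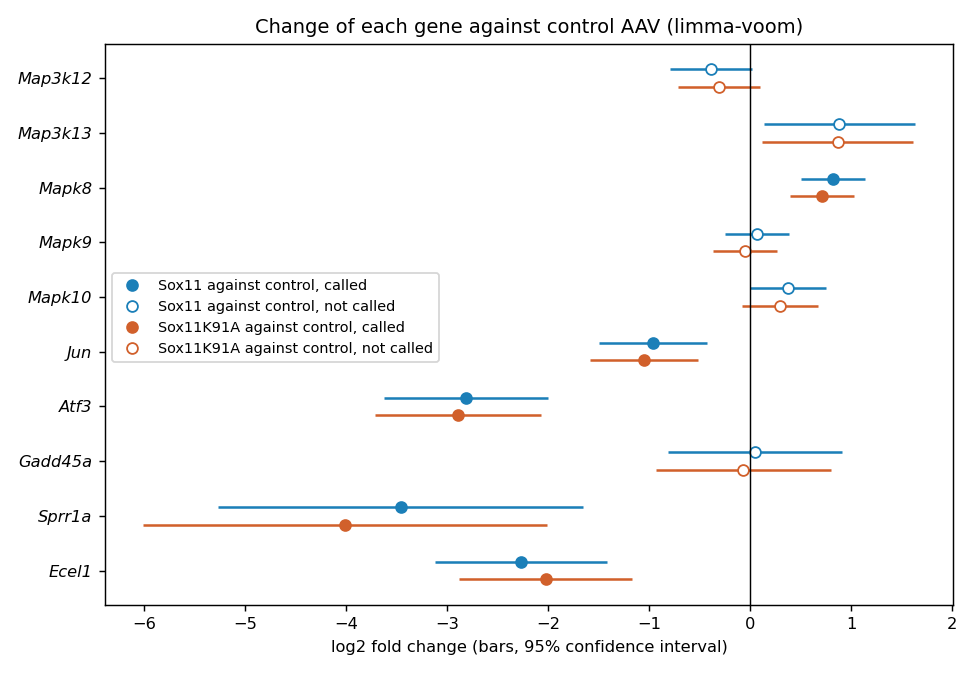
Log2 fold change of each gene against control AAV with its 95% confidence interval from limma-voom, filled where called and open where not. Atf3, Sprr1a, Ecel1 and Jun lie below 0 and Mapk8 above 0 for both viruses, and the intervals of Map3k12, Mapk9, Mapk10 and Gadd45a include 0. Those of Map3k13 lie above 0, though it was not called.

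The calls depended on single libraries, while no called member changed direction. Without Sox11 replicate 2, limma-voom called 0 of 15747 genes for Sox11 against control (3349 at an unadjusted p under 0.05), and the adjusted p of the 5 called members lay between 0.0745 (Ecel1) and 0.150 (Sprr1a), while their log2 fold changes were 0.72 for Mapk8, -1.06 for Jun, -2.77 for Atf3, -3.82 for Sprr1a and -1.74 for Ecel1. Without Sox11 replicate 1, Jun (-0.86, FDR 0.0926) and Sprr1a (-3.14, FDR 0.0679) lost the call, and without control replicate 2 Jun did (-0.86, FDR 0.0854). For Sox11K91A against control, limma-voom called 0 genes without control replicate 2 (4703 at an unadjusted p under 0.05) and 0 without Sox11K91A replicate 1 (1915 at an unadjusted p under 0.05). The members' FDR values then ranged from 0.0571 (Atf3, Sprr1a) to 0.095 (Jun), and from 0.0913 (Atf3) to 0.306 (Jun), with log2 fold changes of Jun at -0.96 and -0.74. Without Sox11K91A replicate 2, Atf3 alone kept the call, and the lost members were at 0.70 for Mapk8 (FDR 0.151), -1.37 for Jun (FDR 0.0534), -4.66 for Sprr1a (FDR 0.108) and -2.32 for Ecel1 (FDR 0.0560). The size of the fall in Sprr1a moved with the library left out. With Sox11 it was -2.72 (FDR 0.0415) without control replicate 2 and -4.06 (FDR 0.0193) without control replicate 1. With Sox11K91A it was -3.28 without control replicate 2, -3.31 without Sox11K91A replicate 1 and -4.61 (FDR 0.0234) without control replicate 1. Atf3 with Sox11K91A was at -2.31 without Sox11K91A replicate 1. A block for the 2 libraries low in Xist gave 6 called members with Sox11 and 5 with Sox11K91A.

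The comparison of Sox11K91A with Sox11 sets the virus without the SUMO attachment site beside the virus with it. Sox11 RNA also differed within and between these groups, at 9178 and 14591 CPM with Sox11 and 11971 and 7026 CPM with Sox11K91A. The site and the level of Sox11 RNA therefore cannot be told apart here. None of the 10 genes was called, and none reached an unadjusted p under 0.05. In limma-voom 0 of 15747 genes (0% of those tested) were called and 108 (0.686%) had an unadjusted p under 0.05, edgeR's quasi-likelihood test called 0 genes and DESeq2 called 2, neither of them a member. The intervals of the log2 difference, Sox11K91A minus Sox11, were -0.43 to 0.21 for Mapk8, -0.62 to 0.44 for Jun and -0.33 to 0.48 for Map3k12, so a difference of over 1 was outside them. They were -1.09 to 0.93 for Atf3, -0.59 to 1.08 for Ecel1, -0.99 to 0.76 for Gadd45a and -3.04 to 1.94 for Sprr1a, so differences of about 1, and more for Sprr1a, were not detectable with 2 libraries per group. The groups did not overlap in CPM for 2 members, Mapk8 and Mapk9, where 26.6% of all genes tested did not overlap. Against control, 8 members did not overlap with Sox11 and 9 with Sox11K91A, where 61.5% and 61.9% of all genes tested did not.

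Per length, the order of the 10 genes differed between control and Sox11 libraries. With control AAV it ran from Ecel1 (486 TPM) over Jun (162 TPM), Mapk10 (105 TPM), Mapk9 (90.6 TPM), Map3k12 (84.7 TPM), Mapk8 (45.7 TPM), Sprr1a (41.0 TPM), Atf3 (36.4 TPM) and Gadd45a (24.7 TPM) to Map3k13 (12.6 TPM). Replicates of neighbours overlapped from Mapk10 to Mapk9, Mapk9 to Map3k12, Mapk8 to Sprr1a and Sprr1a to Atf3, so these places are not told apart. With Sox11, Mapk10 (134 TPM) and Ecel1 (126 TPM) were at the top and overlapped, and Atf3 (5.54 TPM) and Sprr1a (3.82 TPM) were at the bottom. With Sox11K91A the same pairs stood at both ends, Ecel1 at 123.4 TPM and Mapk10 at 122.7 TPM overlapping, and Atf3 at 5.66 TPM and Sprr1a at 2.82 TPM overlapping.

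The promoters of the 4 members that fell with both viruses are shown. RefSeq windows of 300 bases (250 before and 50 after an annotated start, GRCm38.p6) were found for all 10 members, 13 windows in all. On both strands, 32817 windows were searched. Capitals mark every match to the motifs searched: the AP-1 site TGANTCA, bound by Jun and Fos proteins, the related TGACATCA and TTACGTCA, the CRE TGACGTCA, and the SOX core ACAAAG or ACAATG.
Sprr1a, chr3:92485832-92486131, minus strand: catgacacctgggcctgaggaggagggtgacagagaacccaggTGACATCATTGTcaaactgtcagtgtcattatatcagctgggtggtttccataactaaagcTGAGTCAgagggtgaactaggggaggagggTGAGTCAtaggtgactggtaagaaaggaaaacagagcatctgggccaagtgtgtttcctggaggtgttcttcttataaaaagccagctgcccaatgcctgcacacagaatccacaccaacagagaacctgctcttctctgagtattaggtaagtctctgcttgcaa
Jun, chr4:95052173-95052472, minus strand: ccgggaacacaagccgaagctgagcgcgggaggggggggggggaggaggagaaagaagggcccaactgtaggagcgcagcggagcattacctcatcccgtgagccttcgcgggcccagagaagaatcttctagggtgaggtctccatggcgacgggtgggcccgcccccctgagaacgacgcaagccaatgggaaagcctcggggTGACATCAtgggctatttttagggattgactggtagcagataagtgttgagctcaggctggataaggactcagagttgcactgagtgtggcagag
Atf3, chr1:191183284-191183583, minus strand: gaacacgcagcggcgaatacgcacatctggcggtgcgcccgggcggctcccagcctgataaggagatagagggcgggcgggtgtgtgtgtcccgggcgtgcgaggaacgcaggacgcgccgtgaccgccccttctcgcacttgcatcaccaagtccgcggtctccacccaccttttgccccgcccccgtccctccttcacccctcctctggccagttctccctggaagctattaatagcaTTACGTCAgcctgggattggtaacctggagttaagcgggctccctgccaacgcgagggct
Ecel1, chr1:87156307-87156606, minus strand: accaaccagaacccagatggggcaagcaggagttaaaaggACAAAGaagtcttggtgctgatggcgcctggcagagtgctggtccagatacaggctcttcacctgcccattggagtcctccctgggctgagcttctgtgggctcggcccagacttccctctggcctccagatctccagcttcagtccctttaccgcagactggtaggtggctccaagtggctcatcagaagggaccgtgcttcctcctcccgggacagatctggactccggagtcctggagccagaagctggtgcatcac

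TGANTCA was held by 7.81% of all windows and, among the members, by the Sprr1a window alone, which had 2 copies of TGAGTCA that began at positions -146 and -116 from the start. TGACATCA, held by 3.62% of windows, began at -45 in the Jun window and at -207 in the Sprr1a window, where it overlaps a match to the SOX core read on the opposite strand (CATTGT). TTACGTCA, held by 0.497% of windows, began at -10 in the Atf3 window. These last 2 motifs were added after the sequences had been seen. The SOX core was held by 28.6% of all windows and by 4 members, Map3k13, Gadd45a, Sprr1a and Ecel1, of which 2 fell and 2 did not pass the test. The windows of Map3k13 (chr16:21891719-21892018) and Atf3 lie inside the gene spans given above, not at their outer end. Whether these starts are used in these cells was not tested. The CRE TGACGTCA (1.79% of windows) was in a Mapk10 window at -29 and in no other member, and the near match TGACGCAA (0.491%) was in none. A match is a description of the letters and no evidence of binding.

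The rest of the pathway was followed in 5 lists of 65 genes, all of which were tested. With Sox11, 22 of them (33.8%) were called, 8 up and 14 down, and with Sox11K91A 14 (21.5%), 7 up and 7 down, beside 20.1% and 10.6% of all genes tested. Between the 2 viruses limma-voom called 0 of the 65, and 0 had an unadjusted p under 0.05, so a call with 1 virus and not with the other is no measured difference between them.

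Among 19 upstream kinases, scaffolds and regulators, Spag9, which encodes the JNK scaffold JIP4, Map4k4 and Tnik, MAP4 kinases upstream of DLK, and Nmnat2, an NAD-synthesizing axon survival factor, were upregulated with Sox11. Spag9 went from 339 and 270 CPM to 875 and 1247 CPM with Sox11 and 995 and 786 CPM with Sox11K91A (log2 fold changes 1.78 and 1.54). Map4k4 went from 308 and 241 CPM to 533 and 620, and 603 and 508 CPM (1.07 and 1.02). Nmnat2 went from 147 and 151 CPM to 266 and 313, and 290 and 255 CPM (0.95 and 0.87). These 3 were called with both viruses, and Tnik was called with Sox11 (0.58, FDR 0.0428) and at 0.49 (FDR 0.0865) with Sox11K91A. Map3k5, which encodes the JNK and p38 activator ASK1, fell with both (-1.56 and -1.61), and Mapk8ip1, the JIP1 scaffold, fell with Sox11 (-0.73, FDR 0.0373) and was at -0.54 (FDR 0.108) with Sox11K91A. The other 13 did not pass the test with Sox11, Map2k4 and Map2k7 among them, and the median log2 fold change of the list was 0.19 and 0.11. Thus 4 of the 19 rose and 2 fell with Sox11, and 3 rose and 1 fell with Sox11K91A. These counts stand beside 20.1% and 10.6% of all genes tested that were called. Among 5 JNK phosphatases Dusp16 rose with both viruses (0.78 and 0.73), from 27.6 and 29.2 CPM to between 45.5 and 49.2 CPM. Dusp10 fell with Sox11 (-1.03, FDR 0.0292) and was at -0.86 (FDR 0.0591) with Sox11K91A.

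The AP-1 factors and their bZIP partners had the lowest median of the 5 lists, -1.19 with Sox11 and -1.08 with Sox11K91A, against 0.01 and 0.02 over all genes tested. With Sox11 0 of 11 rose and 4 fell, and with Sox11K91A 0 rose and 2 fell. Of all genes tested, 9.96% rose and 10.2% fell with Sox11, and 5.81% rose and 4.81% fell with Sox11K91A. Jund, a JUN family member that pairs with the same partners as c-Jun, was at 441 and 477 CPM with control AAV, 208 and 195 CPM with Sox11 and 193 and 243 CPM with Sox11K91A (-1.19, FDR 0.0121, and -1.08, FDR 0.0193). Cebpb, a bZIP factor of stress and inflammation, went from 29.5 and 22.8 CPM to 6.44 and 2.84, and 4.69 and 7.30 CPM (-2.62, FDR 0.0128, and -2.14, FDR 0.0223). The FOS family genes Fosl2 (-1.95, FDR 0.0413) and Fosl1 (-1.21, FDR 0.0353) fell with Sox11 and were at -1.67 (FDR 0.0788) and -1.18 (FDR 0.0507) with Sox11K91A. The immediate early gene Fosb, named after its values were seen, was at 51.6 and 15.8 CPM with control AAV, 7.13 and 1.24 CPM with Sox11 and 5.12 and 7.41 CPM with Sox11K91A, a spread within groups at which it was not called (FDR 0.0523 and 0.119).

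Of 22 other injury-induced genes, 0 rose, 5 fell with Sox11 and 4 with Sox11K91A, with list medians of -0.46 and -0.39. Of all genes tested, 9.96% rose and 10.2% fell with Sox11 (20.1% called), and 5.81% rose and 4.81% fell with Sox11K91A (10.6% called). Tnfrsf12a, the receptor of the cytokine TWEAK, went from 50.1 and 62.5 CPM to 5.46 and 3.95 CPM with Sox11 and 3.38 and 6.48 CPM with Sox11K91A (-3.60, FDR 0.00753, and -3.59, FDR 0.00919). Hspb1, a small heat shock protein of regenerating neurons, went from 29.3 and 24.1 CPM to 7.39 and 1.87, and 4.44 and 7.17 CPM (-2.88, FDR 0.0169, and -2.23, FDR 0.0326). Srxn1, which encodes the antioxidant enzyme sulfiredoxin, went from 269 and 302 CPM to 87.2 and 51.3, and 63.9 and 100.5 CPM (-2.09, FDR 0.0127, and -1.83, FDR 0.0218). Nts, which encodes the neuropeptide neurotensin, fell with both viruses (-1.33, FDR 0.0261, and -1.26, FDR 0.0417). Anxa2, a calcium-dependent membrane-binding annexin, fell with Sox11 (-1.94, FDR 0.0336) and was at -1.15 (FDR 0.140) with Sox11K91A. Gap43, the growth cone protein and the best known gene of this list, was named after its values were seen. It was at 1218 and 1542 CPM with control AAV, 1159 and 1112 CPM with Sox11 and 1090 and 1224 CPM with Sox11K91A and was not called (-0.27, FDR 0.286, and -0.24, FDR 0.376).

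Of 8 JNK-linked death genes, 3 rose with both viruses, where 9.96% (Sox11) and 5.81% (Sox11K91A) of all genes tested rose. Pmaip1, which encodes the BH3-only protein NOXA, went from 2.08 and 4.33 CPM to 32.0 and 39.8 CPM with Sox11 and 32.6 and 24.5 CPM with Sox11K91A (3.52, FDR 0.0110, and 3.18, FDR 0.0140). Trp53inp1, a p53-induced stress protein, went from 13.7 and 23.9 CPM to 82.7 and 119 CPM, and 94.9 and 72.4 CPM (2.41, FDR 0.0115, and 2.16, FDR 0.0186). Bmf, another BH3-only gene, went from 17.2 and 12.6 CPM to 37.9 and 41.8, and 39.2 and 37.8 CPM (1.46, FDR 0.0115, and 1.41, FDR 0.0164). Neither virus group overlapped the controls for any of the 3, where 61.5% (Sox11) and 61.9% (Sox11K91A) of all genes tested did not overlap. Trib3 (-2.70, FDR 0.0319) and Chac1 (-1.62, FDR 0.0220), targets of the unfolded protein response factors ATF4 and CHOP, fell with Sox11 and were at -2.13 (FDR 0.0607) and -1.21 (FDR 0.0521) with Sox11K91A. As for the 10 members, 0 genes of these lists were called by limma-voom where leaving out a library left 0 called genes overall (Sox11 replicate 2 for Sox11, control replicate 2 or Sox11K91A replicate 1 for Sox11K91A), and no called gene of the lists changed direction. Without control replicate 2, 15 of the 22 list genes called with Sox11 kept their call, and without Sox11K91A replicate 2, 4 of the 14 called with Sox11K91A did.

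**Figure D4:**
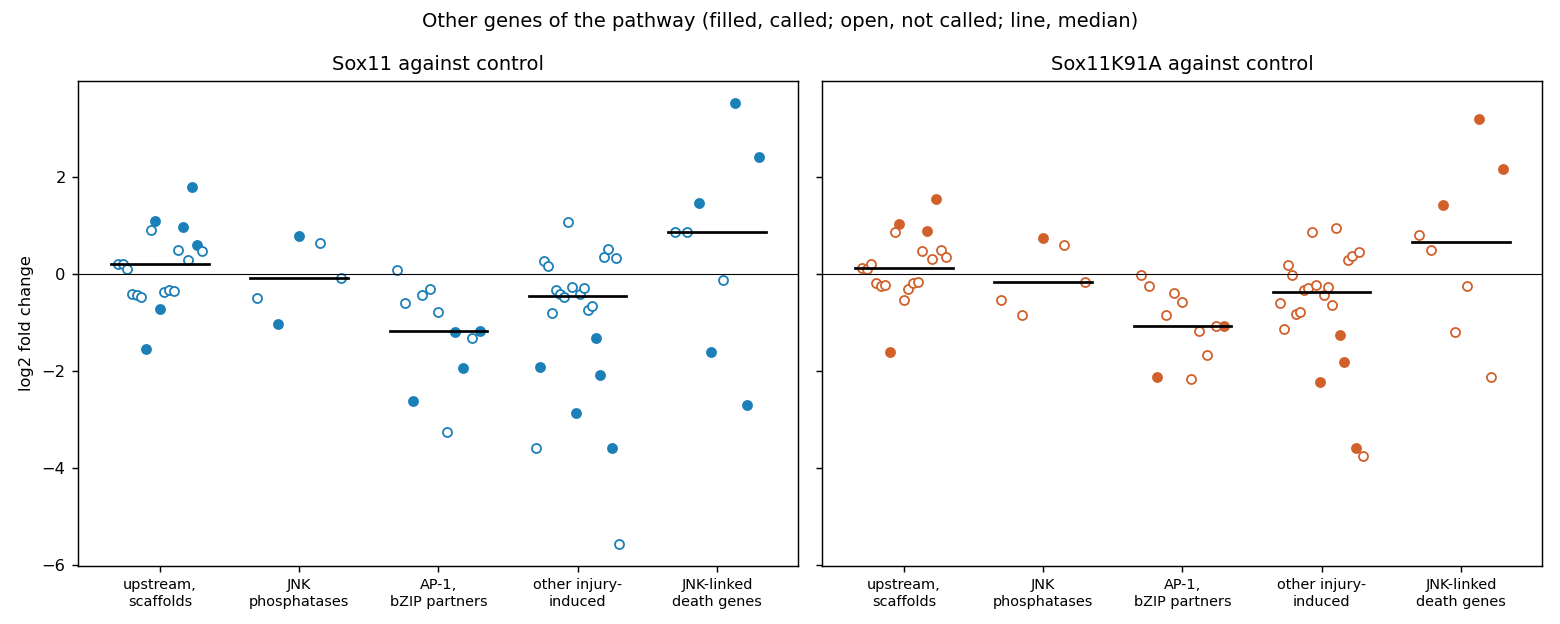
Log2 fold change against control AAV of the 65 genes of the 5 pathway lists, for Sox11 (left) and Sox11K91A (right), with filled symbols for called genes and a line at each list's median. The AP-1 and bZIP list has the lowest median, -1.19 and -1.08, and Pmaip1 is the highest point of the death gene list.

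Signal of other cells was looked for beside these changes. The 7 Müller glia and astrocyte markers summed to 103 to 108 CPM in control libraries, 273 to 299 CPM with Sox11 and 269 to 314 CPM with Sox11K91A. Nearly all of it was Glul, glutamine synthetase, which rose with both viruses (1.49 and 1.51), while Gfap was at 0 in all 6 libraries. Of the 5 glial markers that were tested, Glul alone was called up, and S100b was called down with Sox11. The median log2 fold change of these 5 was -2.13 with Sox11 and -0.90 with Sox11K91A. This median rests on markers other than Glul, which added little to the sum, and S100b was near the floor in the control and Sox11 libraries. Summed markers of microglia and macrophages were at most 1.49 CPM. The part of these shifts, and of the RGC markers Thy1, Nefl and Slc17a6 that fell with Sox11, in the results above was not tested.

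The genes with the most similar profile over the 6 libraries were found by the root mean square (RMS) difference of mean-centred log2 CPM among all genes tested. Nearest to Jun were Cmc2 (RMS 0.0910) and Fam19a5 (0.0945), and nearest to Ecel1 were Fgf11 (0.0649) and Them6 (0.0849). Adra1b (0.163) and Parm1 (0.190) were nearest to Atf3, and Parm1 (0.333) and Dusp14 (0.361) to Sprr1a. Gadd45a, which was flat between groups and high in control replicate 2, was nearest to Rpl24 (0.0480) and Coq3 (0.0483). Among the members themselves, the closest rank was that of Atf3, at rank 5 from Sprr1a (0.377), while Sprr1a was at rank 32 from Atf3. The other members that fell were further off, with Ecel1 at rank 132 and Jun at rank 628 from Sprr1a. From Jun, Ecel1 was at rank 10584, Atf3 at rank 13258 and Sprr1a at rank 14858. Map3k12 (rank 2917) and Mapk9 (rank 6113), which were not called, stood nearer to Jun than these. The profiles were not scaled by the size of a gene's change, so a rank depends on size as well as on direction. The RMS spread of the gene itself was 0.515 for Jun, 1.08 for Ecel1, 1.32 for Atf3 and 1.53 for Sprr1a. With 6 libraries in 3 groups such likeness is a description of these libraries.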

How the data were processed

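RNA-seq was done on 6 libraries, 2 in each group. Alignment by the authors used STAR and mm10, and counting used RSEM, with no versions, annotation or strand setting given in the sources used here. The authors deposited RSEM expected counts, not normalized, of which 80.9% to 82.8% of values above 0 were whole, and TPM values, scaled by RSEM for length and depth. Numbered entries without a gene name (26248, with 1 count in all) and 96 spike-in entries at 0 were left out.

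Expected counts were rounded, filtered with filterByExpr of edgeR 4.0.16, scaled by TMM (factors 0.985 to 1.04) and tested with limma-voom (limma 3.58.1, R 4.3.3) with the 3 groups in a single fit without covariates. P-values are two-sided and were Benjamini-Hochberg adjusted over 15747 genes. CPM uses TMM-scaled library sizes, and errors are SD over 2 libraries. The fit was tested on simulated data. Symbols, positions and exon overlaps were read from GENCODE M21 (GRCm38), where 98.0% of the genes had a symbol, and near-identical transcripts were searched with BLAST+ 2.17.0 at 95% identity. Plots used Python 3.11.15 and matplotlib 3.10.9.

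The 10 genes, the lists and the tests were chosen with earlier results of these data known. Named were all 10 members, Sox11, up to 4 called genes per list and direction with the largest change, and the 2 nearest profiles of 5 members, with a pseudocount of 0.5 CPM. Alternatives were edgeR's quasi-likelihood test, DESeq2 1.42.0, quality weights, limma-trend on log2(TPM + 1) or log2(TPM + 0.1), other scalings, filters and fold thresholds, unrounded counts, 2 groups alone, blocks for the replicate number or low Xist, and leaving out each library. A block with exchanged replicate numbers was chosen after seeing the data.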

Additional observations from a re-analysis of the deposited data

How the results depend on the processing

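With 2 libraries per group, most calls could be lost by leaving out a library. For the 10 members, 581 of 640 refitted log2 fold changes kept their direction and their side of the threshold, 25 lost the call, 3 gained it and 31 changed sign, none of these a called member. The number of members called stayed at 4 to 6 in every alternative other than leaving out a library, where it ranged from 0 to 6 for both Sox11 and Sox11K91A against control. Over all genes, leaving out a library gave 0 to 3742 genes for Sox11 and 0 to 2529 for Sox11K91A. Sample quality weights gave 979, log2(TPM + 0.1) 2107 and a fit of 2 groups 1637 genes for Sox11. For Sox11K91A, DESeq2 gave 3144, log2(TPM + 1) 936, log2(TPM + 0.1) 896 and the block for low Xist 2894 genes. DESeq2 called 2 genes between the viruses. The cause of these shifts was not tested. On the TPM scale the median log2 fold change of all genes rose to 0.08 and 0.10 with Sox11, and with log2(TPM + 0.1) Jun lost the call for Sox11K91A (FDR 0.0512). With quality weights Jun lost it for Sox11 (-0.95, FDR 0.126) and for Sox11K91A (-1.05, FDR 0.0772). Of the 1092 refitted values of list genes, 930 kept their side, 122 lost the call, 40 gained it and 0 changed sign.

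As shares of expected counts, in the order control, Sox11 and Sox11K91A, Mapk9 made up 41.1%, 33.3% and 32.9%, Mapk10 38.4%, 38.6% and 39.2% and Map3k12 80.2%, 63.6% and 65.1%, and Mapk8 in control libraries 20.6%. The cause was not tested.

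Signs changed for members that were not called. With Sox11, Gadd45a was at -0.0038 in edgeR, at -0.0092 in DESeq2 and at -0.45 to 0.67 when a library was left out, and Mapk9 was at -0.015 to 0.15 when a library was left out. With Sox11K91A, Mapk9 was at 0.0499 with log2(TPM + 1) and 0.0504 with log2(TPM + 0.1), and Gadd45a was at 0.32 with the Xist block and at -0.57 to 0.55 when a library was left out. Between the viruses, Atf3 was at 0.042 in edgeR, 0.041 in DESeq2 and 0.064 with the Xist block, and Map3k12 at -0.00104 with log2(TPM + 1) and -0.00106 with log2(TPM + 0.1). The Xist block also gave -0.064 for Map3k12, 0.012 for Jun, 0.32 for Gadd45a, 0.19 for Sprr1a and -0.042 for Ecel1. Leaving out a library gave -0.031 to 0.19 for Map3k12, -0.13 to 0.096 for Map3k13, -0.19 to 0.038 for Mapk10, -0.41 to 0.22 for Jun, -0.63 to 0.51 for Atf3, -0.29 to 0.088 for Gadd45a, -1.20 to 0.15 for Sprr1a and -0.29 to 0.79 for Ecel1.

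A fit blocked on replicate number called 2679 genes for Sox11, 1402 for Sox11K91A and 0 between the viruses, among them 5, 5 and 0 members, so it changed no call of a member. Atf3 between the viruses was at 0.0031 in this fit. Deviations of same-numbered libraries correlated at 0.296 (control and Sox11), -0.0538 (control and Sox11K91A) and -0.421 (Sox11 and Sox11K91A), so the numbers were not taken to pair the samples. A block with the numbers of Sox11K91A exchanged called 0 genes between the viruses (208 at an unadjusted p under 0.05) and 0 members.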

Other observations

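Values of markers of other cell types are given here, and their part in the results was not tested. The 8 amacrine markers summed to 387 to 638 CPM with control AAV, 368 to 487 CPM with Sox11 and 451 to 487 CPM with Sox11K91A, and 1 of them, the glycine transporter Slc6a9, fell with both viruses (log2 fold changes -2.14 and -1.75). The other 7 amacrine markers were not called with either virus. The median log2 fold change of the 8 was 0.124 with Sox11 and 1.155 with Sox11K91A. This median weights genes of low and high level alike, and the summed CPM of the groups overlapped, so it is not read as a change of the list. Most of the amacrine sum was Pax6, at 291 to 405 CPM over the 6 libraries. The GABA-synthesizing enzyme gene Gad2 was at 140 and 71.5 CPM with control AAV, 52.6 and 20.6 CPM with Sox11 and 28.5 and 48.3 CPM with Sox11K91A and was not called (FDR 0.0604 and 0.104 in limma-voom). Summed over their list, photoreceptor markers were at most 1.66 CPM, bipolar markers 2.17 CPM, endothelial and pericyte markers 3.80 CPM, fibroblast markers 11.6 CPM and cycling markers 2.58 CPM in any library. The 3 oligodendrocyte markers summed to between 39.3 and 51.9 CPM, and Mog was called up with Sox11 (2.01, FDR 0.0271 in limma-voom) at 6.15 and 10.6 CPM against 2.58 and 1.66 CPM in controls. Pecam1, an endothelial marker, was called up with Sox11K91A (2.03, FDR 0.0468) at 2.23 and 1.47 CPM against 0.501 and 0.389 CPM, and the glial marker S100b was called down with Sox11 (-3.70, FDR 0.0428) at 0.0728 and 0 CPM against 0.465 and 0.467 CPM.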
